A study of Mus musculus with 4 samples.

Results

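Alpha-fetoprotein (Afp), 3 of its relatives in the albumin family and 3 repressors of Afp were examined in 4 lines of LMTK- cells. These are mouse fibroblasts derived from L cells that cannot make thymidine kinase. The genes were Afp, Alb, Afm, Gc, Zhx2, Zbtb20 and Zfhx3, and every probe set that the platform annotation gives to 1 of them alone was taken. This gave 24 probe sets of 45037 on the array outside its controls, for 6 of the 7 genes. Afp had 5 probe sets, Alb 1, Afm 2, Zhx2 1, Zbtb20 9 and Zfhx3 6, and 0 were found for Gc, which therefore has no value here. The set was chosen by the signal of Afp, which was high in all 4 lines, so its level is given as a description with no test.

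All 4 lines were stable transfectants of the pCI-neo expression vector. Vector 1 and vector 2 carried it with no insert, and MTf 4 and MTf 6 were clones that carried it with the mouse cDNA of melanotransferrin, a membrane-anchored protein of the transferrin family. Each MTf line is 1 clone, while the vector lines may be separate clones or cultures, which the labels leave unsaid. Total RNA of each line was hybridised to 1 Affymetrix Mouse Genome 430 2.0 array, so each group has n = 2. The comparison asks which transcripts differ with overexpression of melanotransferrin.

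Alpha-fetoprotein is the main plasma protein of the fetus. It is made by the yolk sac and the fetal liver, and its transcription in the liver is shut down after birth. Albumin, afamin (Afm) and the vitamin D-binding protein Gc are its relatives, and the family is transcribed mostly in hepatocytes under factors such as HNF1, the FOXA proteins and C/EBP. Zhx2 and Zbtb20 are zinc finger proteins needed for the postnatal silencing of Afp, and Zfhx3, also called ATBF1, is a homeodomain and zinc finger protein that binds AT-rich elements of the Afp gene and lowers its activity.

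The sequences before the starts of Afp, Alb and Afm are shown because these genes lie next to each other on mouse chromosome 5, in the order Alb, Afp, Afm, and the signals of their probe sets in these cells are given next. Each line holds the 250 bases before the annotated start, on the plus strand of GRCm38.p6, from RefSeq, at chr5:90490464-90490713 for Afp, chr5:90460620-90460869 for Alb and chr5:90518699-90518948 for Afm. Capitals mark matches to the HNF1 consensus, GTTAAT and ATTAAC with any 1 base between them, with at most 2 mismatches, searched on both strands.
Afp: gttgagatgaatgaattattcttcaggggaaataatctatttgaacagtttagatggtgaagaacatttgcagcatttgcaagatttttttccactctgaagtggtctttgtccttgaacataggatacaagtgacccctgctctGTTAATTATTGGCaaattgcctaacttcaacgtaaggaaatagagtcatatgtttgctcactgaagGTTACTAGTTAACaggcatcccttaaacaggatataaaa
Alb: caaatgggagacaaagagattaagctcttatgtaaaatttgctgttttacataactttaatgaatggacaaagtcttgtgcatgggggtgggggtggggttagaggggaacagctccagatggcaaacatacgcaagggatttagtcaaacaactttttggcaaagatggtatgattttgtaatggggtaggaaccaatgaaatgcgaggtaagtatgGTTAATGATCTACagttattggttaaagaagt
Afm: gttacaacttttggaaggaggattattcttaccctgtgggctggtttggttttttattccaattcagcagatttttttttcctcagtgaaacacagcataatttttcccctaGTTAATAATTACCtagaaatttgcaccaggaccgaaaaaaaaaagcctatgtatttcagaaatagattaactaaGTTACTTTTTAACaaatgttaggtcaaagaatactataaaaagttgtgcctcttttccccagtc
Afp held 2 such matches, 105 to 93 and 39 to 27 bases before the start. Alb held 1, 32 to 20 bases before the start, and Afm held 2, 138 to 126 and 64 to 52 bases before it. The Gc promoter, not printed, held 1 match, and so did that of Zbtb20, that of Zfhx3 held 0 and that of Zhx2 was not searched, while 1.25% of 32544 promoter windows of the same length held any. The letters TATAAA were found in Afp, 7 to 2 bases before the annotated start, and in Afm, 30 to 25 bases before it, and in 12.3% of all windows. These are matches of letters, and no binding was measured.

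Signals are scaled array intensities, and the median signal lay between 209 and 214 in the 4 arrays. Probe sets bind their targets with unequal strength, so signals of different probe sets give no order of transcript levels. Differences and folds are on the log2(signal + 32) scale. Only the 22519 probe sets at or above the median of all, a signal of about 196, were tested for MTf minus vector with limma, and probe sets below that are called dim. Meltf, the gene of melanotransferrin, was at 265 in vector 1 and 274 in vector 2, with 1519 in MTf 4 and 1885 in MTf 6, so both clones stood above both vector lines. Its log2 difference of 2.52 (SE 0.24) did not pass limma's adjustment (adjusted p = 0.0903).

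Afp gave strong signals in all 4 fibroblast lines through 3 of its 5 probe sets. Probe set 1416645_a_at was at 23606 in vector 1 and 19362 in vector 2, with 15810 in MTf 4 and 24501 in MTf 6. Probe set 1416646_at was at 12452, 10173, 9346 and 11892 in the same order. By both, MTf 4 was the lowest line and vector 1 and MTf 6 were the highest pair, so 1 clone lay at or near each end of the range. MTf 4 was the lowest line for 4 of the 5 Afp probe sets, and for 25.7% of all tested probe sets. The first stood above 98.1% to 98.9% of all probe sets of each array and the second above 96.6% to 97.5%.

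Probe set 1436879_x_at gave the same order as 1416646_at with a wider spread. It was at 21706 in vector 1 and 11325 in vector 2, with 5643 in MTf 4 and 17371 in MTf 6. The highest line was 3.83-fold above the lowest, against 1.55-fold for 1416645_a_at and 1.33-fold for 1416646_at. The ending _x_at marks probe sets with probes that are also similar to other sequences, and what they bound here was not tested.

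The remaining probe sets of Afp, which the annotation assigns to the same source sequence as each other, did not share that picture. Probe set 1436880_at was dim, at 20.1 in vector 1 and 19 in vector 2, with 18.9 in MTf 4 and 18.8 in MTf 6. Probe set 1436881_x_at was at 427 in vector 1 and 569 in vector 2, with 118 in MTf 4 and 191 in MTf 6. Both clones thus lay below both vector lines by this probe set, and vector 2 rather than vector 1 was the highest line. The probe sets of Afp therefore do not give a single pattern across the lines, and which part of the transcript each of them reads was not examined.

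**Figure D1:**
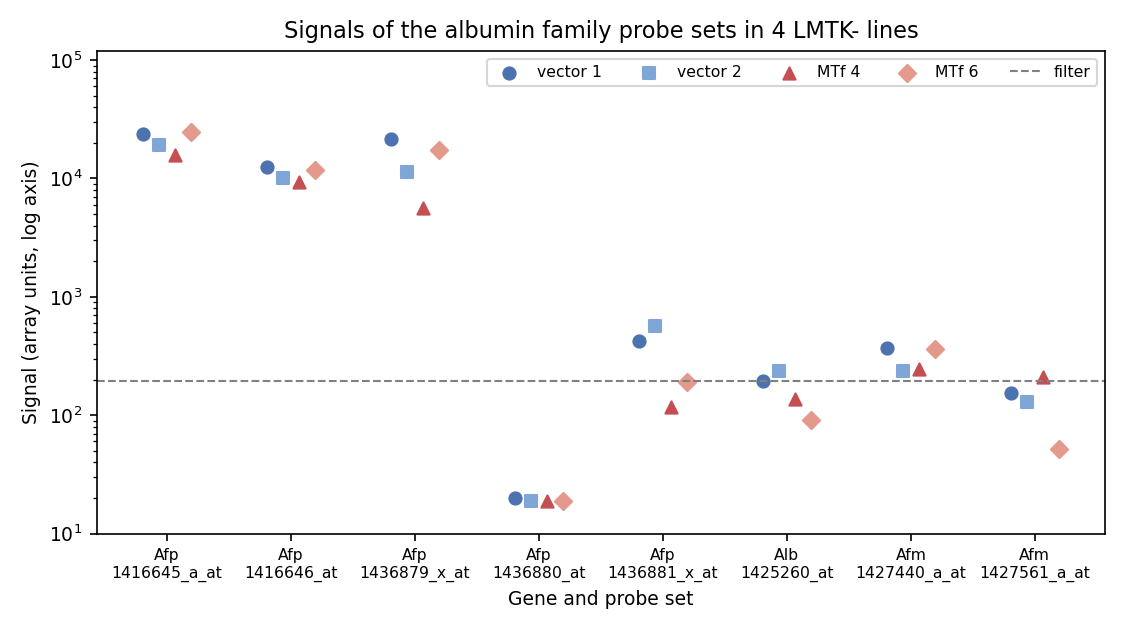
Signal of each Afp, Alb and Afm probe set (horizontal axis) in the 4 lines, in array units on a log axis, 1 point per array, with the filter as a dashed line. Of the Afp probe sets, 3 lie far above the filter in every line and 1436880_at lies at about 19 to 20, while Alb and Afm lie near the filter.

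Between the groups, Afp did not pass the test by any of its 4 tested probe sets. By 1416645_a_at the mean signal was 20155 ± 6145 (SD, n = 2) in the clones against 21484 ± 3002 (SD, n = 2) without insert, a log2 difference of -0.12 (SE 0.24, 95% interval -0.67 to 0.43). By 1416646_at the difference was -0.09 (95% interval -0.56 to 0.37). Both intervals lie within 2-fold in either direction. By 1436879_x_at the difference was -0.66, with an interval of -1.84 to 0.52.

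The probe set 1436881_x_at had the largest difference of any tested Afp probe set, -1.52 (SE 0.34, 95% interval -2.32 to -0.72), and its adjusted p from limma was 1.00. The mean signal was 155 ± 51.8 (SD, n = 2) in the clones against 498 ± 101 (SD, n = 2) in the vector lines. Both clones lay below the filter of about 196, so the probe set passed it only through the vector lines, where it was high. Its difference and interval are therefore a description. This probe set was the only 1 of 21 tested probe sets of Afp, its relatives and its repressors that passed an unadjusted 0.05, where 1.9% of all tested probe sets did. It was also the only 1 of the 21 whose groups did not overlap, while 25.8% of all tested probe sets had groups that did not overlap and 13.6% had them with the clones lower. Over all probe sets tested, limma called 1, or 0.00444%, and 0 of the 21.

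The direction of the bright Afp probe sets depended on single lines. Without MTf 4 the log2 differences were 0.20 for 1416645_a_at, 0.08 for 1416646_at and 0.15 for 1436879_x_at. Without vector 1 they were 0.02 for 1416645_a_at and 0.05 for 1416646_at, while 1436879_x_at stayed lower in the clones, at -0.19. Of the 4 tested Afp probe sets, 1436881_x_at alone stayed lower in the clones whichever array was left out, between -1.81 and -1.23. An exact permutation test on 2 against 2 arrays cannot go below a two-sided p of 0.333 and so cannot pass.

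Albumin, the main plasma protein of the adult, was dim in these lines. Its probe set 1425260_at was at 196 in vector 1 and 236 in vector 2, with 136 in MTf 4 and 91.9 in MTf 6. Both clones lay below both vector lines, with means of 114 ± 31.0 (SD, n = 2) and 216 ± 28.7 (SD, n = 2), a log2 difference of -0.78 that was not tested because the probe set fell below the filter. Without the filter, this difference had a limma adjusted p of 1.00.

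Afamin, a vitamin E-binding plasma protein, was near the filter by both of its probe sets. Probe set 1427440_a_at was at 368 in vector 1 and 237 in vector 2, with 244 in MTf 4 and 361 in MTf 6, with the highest and second highest lines in different groups. Its log2 difference was 0.01 (95% interval -0.81 to 0.82). It took either sign when an array was left out, at -0.28 without vector 2 and -0.25 without MTf 6. Probe set 1427561_a_at was dim, at 155, 128, 209 and 52.1 in the same order, so the clones were the highest and the lowest line.

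Zhx2, a repressor in the postnatal silencing of Afp and of other fetal liver genes, was measured above the filter in every line. Its probe set 1455210_at was at 2480 in vector 1 and 2463 in vector 2, with 2803 in MTf 4 and 2258 in MTf 6. The highest line was 1.24-fold above the lowest, and the vector lines lay between the clones. The log2 difference was 0.03 (SE 0.20, 95% interval -0.45 to 0.50), and it was -0.13 without MTf 4.

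Zbtb20, which represses Afp in the adult liver, was higher in MTf 4 than in the other 3 lines by all 9 of its probe sets. The next highest line was vector 2 by all 9, and vector 1 and MTf 6 were the lowest pair. Probe set 1437598_at, which had the highest mean, was at 1867 in vector 1 and 2209 in vector 2, with 2650 in MTf 4 and 1602 in MTf 6. Probe set 1439278_at had the widest spread, at 807, 948, 1823 and 589, with MTf 4 2.99-fold above MTf 6. Probe set 1451577_at set vector 2 and MTf 4 apart from the others most clearly, at 1206 and 1252 against 479 in vector 1 and 591 in MTf 6.

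The pairing of lines that Zbtb20 showed was common on the array. Vector 2 and MTf 4 both stood above the other lines for 27% of all tested probe sets, and MTf 4 was the highest line for 30.4%. The 9 probe sets read transcripts of 1 gene in the same 4 RNA samples, so they are not independent readings. Over these probe sets, the median of the deviations from each 4-line mean was 0.58 in MTf 4, 0.07 in vector 2, -0.25 in vector 1 and -0.44 in MTf 6. The 348 genes tested on chromosome 16, where Zbtb20 lies, had median deviations of 0.03, 0.02, -0.01 and -0.02 in the same order. Any link between these and the values of Zbtb20 was not tested.

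Between the groups, Zbtb20 did not pass the test by any probe set. The log2 difference was above 0 for 8 of 9 probe sets and reached from -0.06 to 0.33, with a median of 0.17, beside a median of -0.01 over all tested probe sets. The widest interval, that of 1451577_at, was -0.94 to 1.28. Without MTf 4, 0 of 9 were above 0 and the median was -0.34, and without MTf 6 all 9 were above 0 and the median was 0.65. Without vector 1 the median was -0.01, and without vector 2 it was 0.41. The lowest line was MTf 6 for 5 of the 9 probe sets and vector 1 for 4.

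**Figure D2:**
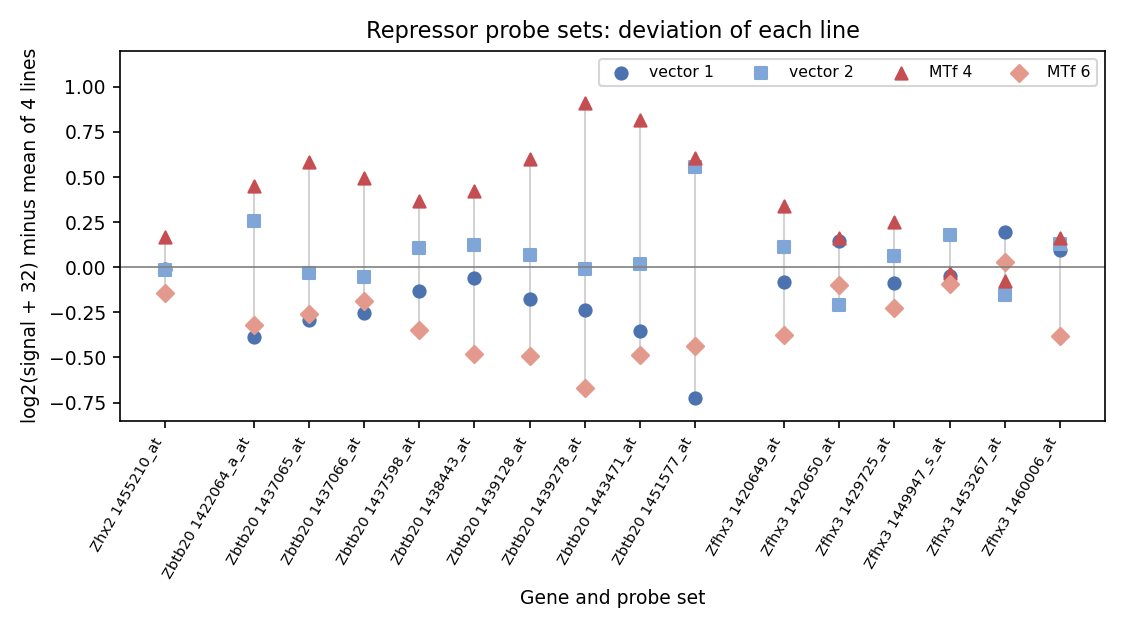
Deviation of each line from the mean of the 4 lines, as log2(signal + 32), for every probe set of Zhx2, Zbtb20 and Zfhx3 (horizontal axis), with 1 point per array. MTf 4 is highest for all 9 Zbtb20 probe sets, while the highest line is 1.21-fold to 1.64-fold above the lowest for Zfhx3 and 1.24-fold for Zhx2.

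Zfhx3 differed less between the lines, and its probe sets gave more than 1 order. Vector 2 and MTf 4 were the highest pair for 4 of its 6 probe sets, the pair that Zbtb20 had for all 9. Probe set 1449947_s_at, which had the highest mean, was at 2205 in vector 1 and 2589 in vector 2, with 2231 in MTf 4 and 2139 in MTf 6. Probe set 1420649_at was at 1526, 1752, 2055 and 1238. MTf 4 was the highest line for 4 of the 6 probe sets and MTf 6 the lowest for 4. The highest line was 1.21-fold to 1.64-fold above the lowest, against 1.64-fold to 2.99-fold for Zbtb20.

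The log2 differences of Zfhx3 reached from -0.22 to 0.07, with 2 probe sets above 0 and 4 below, and a median of -0.04. No probe set passed the test. The median was -0.18 without MTf 4 and 0.12 without MTf 6, so its sign turned with the clone that was left out. For 1449947_s_at the interval was -0.59 to 0.34, and for 1420650_at it was -0.52 to 0.65.

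**Figure D3:**
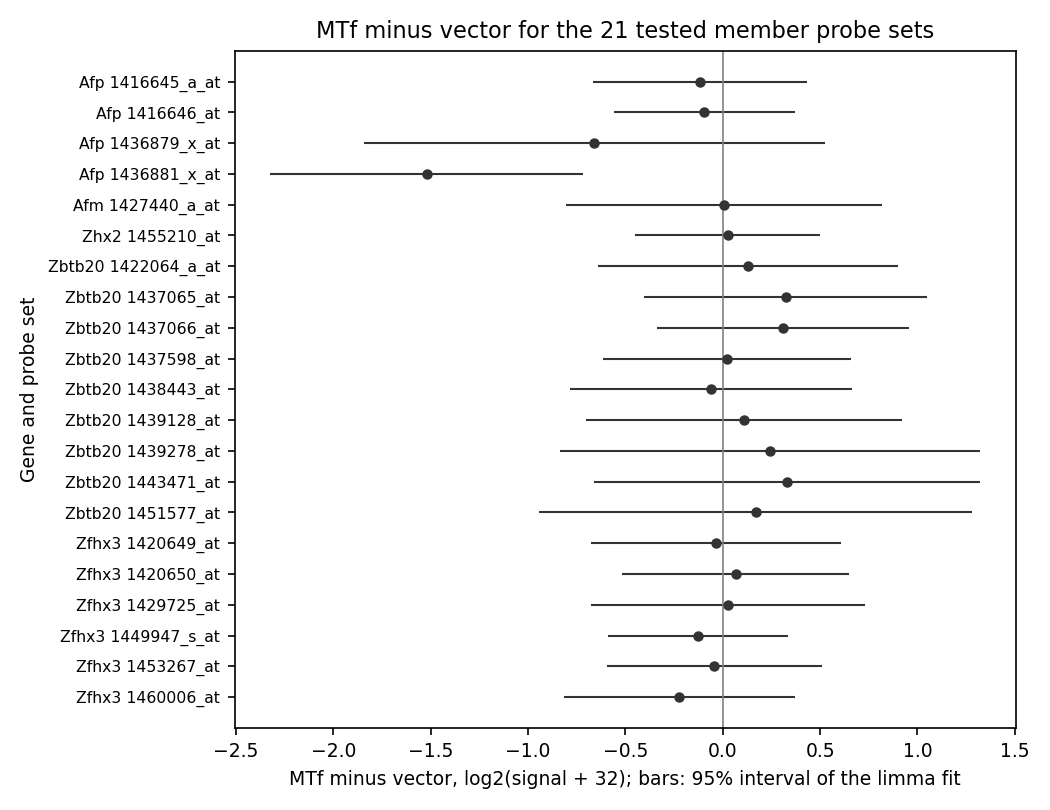
MTf minus vector on the log2(signal + 32) scale (horizontal axis) for the 21 tested probe sets, as points with 95% intervals of the limma fit over 2 arrays per group. Every interval includes 0 except that of Afp 1436881_x_at, at -2.32 to -0.72, whose adjusted p was 1.00. Both clones lay below the filter by that probe set.

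Line by line, the bright Afp probe sets and Zbtb20 had opposite highest and lowest pairs. MTf 4 was the lowest line for the 3 bright Afp probe sets and the highest for Zbtb20, and vector 1 and MTf 6 were the highest pair for Afp and the lowest for Zbtb20. Vector 1 and MTf 6 both stood above the other lines for 21.3% of all tested probe sets, so the pairing of lines in Afp was common too. With 4 lines no correlation was computed. Of the 21 tested probe sets, 5 were at least 2-fold apart between the 2 clones, or 23.8%, all of Afp and Zbtb20, against 4.77% of all tested probe sets. Between vector 1 and MTf 4 it was also 5, against 4.13%, and between the vector lines it was 1, a Zbtb20 probe set, against 3.33%. The counts were 1 for vector 1 and MTf 6, 2 for vector 2 and MTf 4 and 1 for vector 2 and MTf 6, all of Afp, against 2.44%, 2.54% and 4.11%. Afp 1436881_x_at, which passed the filter only through the vector lines, is in every count between a vector line and a clone. It is the only probe set counted for vector 1 and MTf 6 and for vector 2 and MTf 6. These counts are therefore a description. Between the clones, the 5 were 1439128_at, 1439278_at, 1443471_at and 1451577_at of Zbtb20 and 1436879_x_at of Afp. Probe sets of 1 gene in the same RNA are not independent readings, so the shares of members and of all probe sets were not compared by a test. With a single array per line, these differences have no replicate check.

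The 6 genes of the MCM helicase of DNA replication, a list added after the data were seen, had a median deviation of 0.54 in vector 1, 0.31 in MTf 6, -0.41 in vector 2 and -0.50 in MTf 4. Mcm5 was at 27515 in vector 1 and 15021 in vector 2, with 12450 in MTf 4 and 23281 in MTf 6. Their part in the values of Afp and Zbtb20 was not tested. In RNA from whole cultures, fewer cells that make a transcript and less of it per cell cannot be told apart.

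The tested probe sets whose 4 values lay closest to those of Afp 1416645_a_at belonged to Mrpl11, Cklf, Spc25, Polh and Mis12. They were picked as the closest of all tested probe sets of single genes outside the set. Over 4 arrays, such close values can arise from the search alone. Those of Mrpl11, Cklf and Polh end in _x_at, and what they bound was not tested. Likeness was the Euclidean distance between deviations from the mean of the 4 lines on the log2(signal + 32) scale, and it was 0.020 for Mrpl11, 0.029 for Cklf, 0.033 for Spc25, 0.034 for Polh and 0.038 for Mis12. For Mrpl11, a mitochondrial ribosomal protein gene, signals were 907 in vector 1 and 742 in vector 2, with 595 in MTf 4 and 929 in MTf 6. The other Afp probe sets lay farther away, at 0.20 for 1416646_at, 1.00 for 1436879_x_at and 1.48 for 1436881_x_at.

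The liver program to which Afp belongs was mostly dim in these lines. Of 20 genes of hepatocyte secreted proteins and enzymes with a probe set, 17 were below the filter by their brightest probe set. The tested ones were Hpx, hemopexin, Apoh, apolipoprotein H, and Serpinc1, antithrombin, and 0 of them passed, with 1 higher and 2 lower in the clones and a median log2 difference of -0.16. Hpx was at 408 in vector 1 and 239 in vector 2, with 288 in MTf 4 and 373 in MTf 6. Ttr, transthyretin, was at 31.2, 83.9, 37.8 and 37.7, and the fibrinogen gene Fgb at 11.5, 7.2, 7.0 and 6.3. The summed signal of the list was 2282 and 2362 in the vector lines and 1792 and 2323 in the clones.

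The liver transcription factors that activate the family were dim as well, apart from the C/EBP genes Cebpb and Cebpd. Of 13 with a probe set, 11 were below the filter, among them Hnf4a, Foxa2, Gata4 and Cebpa. Hnf4a was at 223 in vector 1 and 109 in vector 2, with 191 in MTf 4 and 273 in MTf 6. Cebpb, a C/EBP protein of many cell types, was at 9249, 7730, 8255 and 8237, and Cebpd at 1042, 1238, 2674 and 990. Neither passed the test, with log2 differences of -0.04 and 0.51. Cebpd was highest in MTf 4, as were 30.4% of all tested probe sets.

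Yolk sac and visceral endoderm, the other source of Afp, showed no clear set of markers. Of 12 genes with a probe set 10 were below the filter, among them Sox17, Foxa2, Gata6 and Gata4. The tested ones were Cubn, the receptor cubilin, and Lrp2, the receptor megalin, with a median difference of 0.31, and 0 passed. Cubn was at 415 in vector 1 and 409 in vector 2, with 645 in MTf 4 and 578 in MTf 6. The summed signal of the list was 1670 and 1781 in the vector lines and 1918 and 1650 in the clones, and no gene of the list was listed at 0.

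Markers of fibroblasts were mostly bright. Of 16 genes 12 were above the filter, with Vim, the intermediate filament vimentin, at 74441 in vector 1 and 83158 in vector 2, with 94073 in MTf 4 and 78529 in MTf 6. Thy1, Lum, Dcn and Twist1 were dim in these lines. Of the tested ones 8 were higher in the clones and 4 lower, the median was 0.08, and 0 were called. Of 8 epithelial genes 7 fell below the filter by their mean, and Krt8, keratin 8, was at 572, 505, 419 and 520. Among the 7 was Epcam, an epithelial adhesion molecule, which was at 131 and 40.1 in the vector lines but at 326 in MTf 4 and 405 in MTf 6, above them in both clones. Its log2 difference of 1.87 was not tested, and its part in the values of Afp was not tested.

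**Figure D4:**
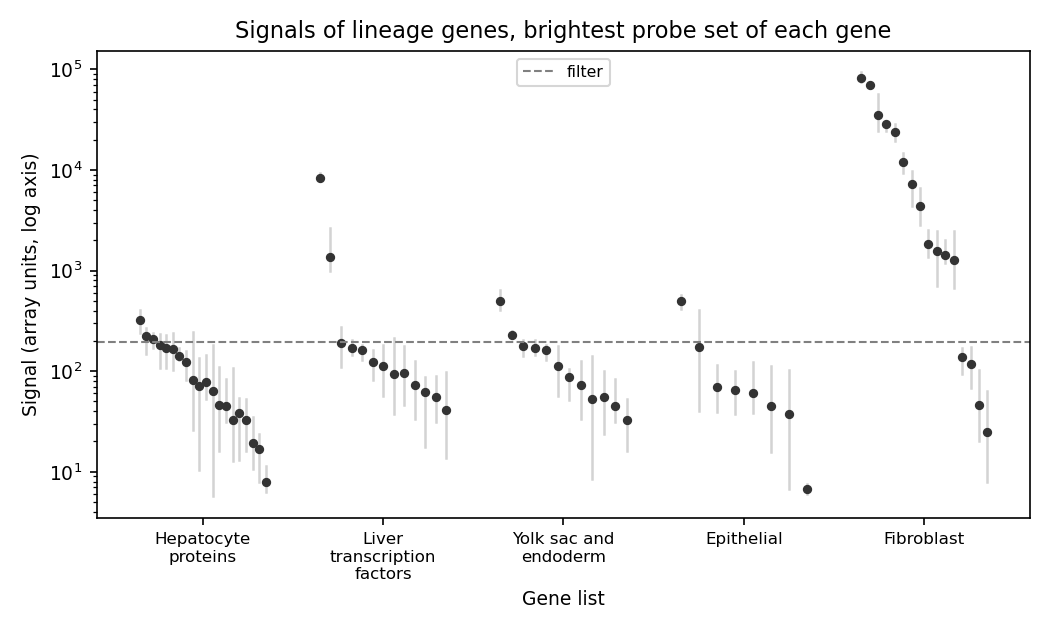
Signals of the brightest probe set of each gene in 5 gene lists (horizontal axis), in array units on a log axis, with a point for the mean of the 4 lines taken on the log2(signal + 32) scale and a grey bar from the lowest to the highest line. The filter is dashed: 17 of 20 hepatocyte genes lie below it and 12 of 16 fibroblast genes above it.

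Of 13 other regulators known to act on Afp 12 had a probe set, all above the filter, and 0 passed the test. Their median log2 difference was -0.02, with 5 higher and 7 lower in the clones, beside -0.01 over all 10682 genes tested. Ctnnb1, beta-catenin, was at 26169 in vector 1 and 35535 in vector 2, with 29173 in MTf 4 and 26243 in MTf 6. Jun, a subunit of AP-1, was at 5077, 5007, 6431 and 6878, and Smad4, the common SMAD, at 5319, 5160, 5144 and 4974. Nfix, a nuclear factor I protein, was at 3717, 5212, 4500 and 3846.

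Relatives of the repressors were in part above the filter. Of 8 with a probe set 5 were tested, with 1 higher and 4 lower in the clones, a median of -0.04 and 0 called. Zfhx4, the close relative of Zfhx3, was at 3429 in vector 1 and 4040 in vector 2, with 4489 in MTf 4 and 2930 in MTf 6. Zbtb11 was at 2502, 2263, 2113 and 2629, Zhx3 at 355, 471, 472 and 618 and Zbtb10 at 447, 335, 264 and 478. Zhx1, which can pair with Zhx2, was dim.

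Oncofetal liver genes, several of which Zhx2 represses together with Afp, were measured in part. Of 10 with a probe set 5 were dim, among them Gpc3, the glypican 3 gene, which is a known target of Zhx2 and was at 312 in vector 1 and 132 in vector 2, with 45.6 in MTf 4 and 111 in MTf 6. Lpl, lipoprotein lipase, another Zhx2 target, was at 16560, 16698, 22861 and 20706, higher in both clones, with a log2 difference of 0.39 that did not pass (limma, adjusted p = 1.00). Igf2bp3, an RNA-binding protein, was at 2591, 2524, 2623 and 2326, Igf2bp1 at 1181, 810, 810 and 1433 and Elovl3, a fatty acid elongase, at 697, 301, 363 and 470. The tested members had a median of 0.11, with 3 higher, 2 lower and 0 called.

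Genes for the uptake or recycling of albumin family proteins, receptors among them, were above the filter in 8 of 9 cases. Of the 8, 7 were higher and 1 lower in the clones and 0 were called, while 5231 of all 10682 tested genes were higher. The median difference of the 8 was 0.08. B2m, the light chain of the neonatal Fc receptor, was at 53955 in vector 1 and 61787 in vector 2, with 70579 in MTf 4 and 52026 in MTf 6. Fcgrt, its heavy chain, which was picked after its values had been seen, was at 2234, 3565, 5996 and 2288. It was highest in MTf 4, as were 30.4% of all tested probe sets. Sparc, an albumin-binding matrix protein, was at 19556, 28289, 27448 and 20912, Cav1, caveolin 1, at 12834, 15852, 13471 and 8511 and Lrpap1, the chaperone of megalin, at 5824, 8986, 8320 and 6756.

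Of 7 genes of vitamin D handling, the field of Gc, 4 were tested and 0 called, with 1 higher and 3 lower and a median of -0.08. Cyp27b1, which activates vitamin D, was at 671 in vector 1 and 385 in vector 2, with 1000 in MTf 4 and 874 in MTf 6, and its log2 difference of 0.84 did not pass (limma, adjusted p = 1.00). Vdr, the vitamin D receptor, was at 916, 1048, 1230 and 631. Rxrb and Rxra, its partner receptors, were at 2094, 2645, 2070 and 1683 and at 736, 1170, 983 and 860.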

How the data were processed

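Total RNA of 4 LMTK- lines was measured, 1 array per line, and groups were taken from the labels. Each probe set has 1 deposited intensity per array, on a linear scale, which the authors computed in GCOS 1.3, according to the submitters' processing notes. The settings used there were not given in the sources used here. All arrays had the same 2%-trimmed mean, 1000.01, and were used as deposited. The 64 control probe sets were left out. Gene names came from the platform annotation, and promoters from RefSeq (GRCm38.p6).

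Values were converted to log2(signal + 32). Probe sets below the median of the mean log2 values were not tested. MTf minus vector was tested in R 4.3.3 with limma 3.58.1, using lmFit and a trended eBayes, with Benjamini-Hochberg adjustment over all 22519 tested probe sets and a threshold of 0.05, and the script was tested on simulated data. Spread between the samples of a group, which may be technical, is all that the p-values measure, and the number of arrays limits the precision. Each list gene was represented by its brightest probe set. Named genes were the probe sets of the 7 genes, Meltf, up to 4 genes per list with the highest mean signal, defining liver and endoderm genes, and the 5 probe sets closest to Afp. Gpc3, Zhx1, Fcgrt, Mcm5 and the dim fibroblast genes were named outside this rule, once their values were known. The genes and lists were chosen with earlier results of these data known. Alternatives were 8 settings of the offset, filter, scaling and variance model, besides 4 that each left out 1 array.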

Additional observations from a re-analysis of the deposited data

How the results depend on the processing

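In all 12 alternatives 0 tested probe sets of Afp, its relatives and its repressors were called. None of their differences above the filter turned its sign under the 8 settings that kept all arrays, and those that turned did so with an array left out. The count of called probe sets was 0 without the filter, 0 without the trend and 3 with the filter on the highest signal, and 2 to 21 with 1 array left out. Meltf, which did not pass as reported (limma, adjusted p = 0.0903), passed under 2 of the 12 alternatives, with the filter on the highest signal, at a log2 difference of 2.52 (adjusted p = 0.0186), and without MTf 4 (adjusted p = 0.00911). Under the other 10 its adjusted p lay between 0.0517 and 0.445, and its difference lay between 2.36 and 2.67 with 1 array left out. The cause was not tested. With 1 array left out, the differences of Afp were -0.43 to 0.20 for 1416645_a_at, -0.27 to 0.079 for 1416646_at and -1.47 to 0.15 for 1436879_x_at. They were -0.28 to 0.29 for 1427440_a_at of Afm and -0.13 to 0.18 for 1455210_at of Zhx2. For Zbtb20 they were -0.26 to 0.51 for 1422064_a_at, -0.10 to 0.74 for 1437065_at, -0.032 to 0.65 for 1437066_at, -0.34 to 0.38 for 1437598_at, -0.51 to 0.39 for 1438443_at, -0.43 to 0.65 for 1439128_at, -0.55 to 1.03 for 1439278_at, -0.32 to 0.98 for 1443471_at and -0.47 to 0.81 for 1451577_at. For Zfhx3 they were -0.39 to 0.32 for 1420649_at, -0.11 to 0.24 for 1420650_at, -0.21 to 0.27 for 1429725_at, -0.24 to -0.01 for 1449947_s_at, -0.22 to 0.13 for 1453267_at and -0.49 to 0.048 for 1460006_at. Such fits hold 1 array in a group, which is assumed to vary like the other group.

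The probe sets of these genes at least 2-fold apart between vector 1 and MTf 6 numbered 0 with an offset of 64 and 2 without the filter or with the filter on the highest signal. Between vector 2 and MTf 4 they numbered 1 with an offset of 64, quantile normalization or median centring. Between vector 2 and MTf 6 they numbered 2 with an offset of 16, without the filter and with the filter on the highest signal. No paired analysis was possible because the groups share no replicate number in the labels. Signals near or below the filter, such as those of Alb, Afm and, in the clones, Afp 1436881_x_at, limit what can be said of them. Detection calls were not used.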
